A study of Oreochromis niloticus with 6 samples.

Results

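Serine, glycine and folate one-carbon metabolism was followed here through the 58 loci of the liver transcriptome that carried at least 1 of 3 KEGG pathway entries (glycine, serine and threonine metabolism; one carbon pool by folate; cysteine and methionine metabolism) and averaged 1 FPKM or more across the 6 libraries. Of 31872 loci in the deposited table, 90 had such an entry. Leaving out 9 aminotransferase, lactate dehydrogenase and monoamine oxidase loci by gene name left 81, and 23 of these were below 1 FPKM, so the 58 are not all loci of the pathways. The locus si:ch211-127i16.2, annotated as a monoamine oxidase (EC:1.4.3.4), was not caught by its name and is among the 58. A locus that is weak in 1 group could reach the minimum through the other group alone, as choline dehydrogenase (chdh) did. Nearest the minimum were aldh1l2 inside it, at a mean of 1.03 FPKM, and gatm outside it, at 0.813 FPKM. FPKM counts fragments scaled for transcript length and library size, so levels of different genes can be set side by side.

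The fish were GIFT, an improved farmed strain of Nile tilapia (Oreochromis niloticus), with no genotype or treatment other than dissolved oxygen (DO) named in the labels. Liver was sampled at 96 h from a control group (CG, 3 libraries, DO of 5 mg/L) and from a hypoxia group (HG, 3 libraries, labelled with a DO of 0.7 to 0.8 mg/L, while the study's methods state a different level). The labels do not say whether a library holds RNA from a single fish or from a pool, and p-values measure the spread between these libraries. In whole liver RNA, fewer cells of a type and less RNA per cell cannot be told apart.

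Serine gives up a carbon to tetrahydrofolate and becomes glycine, and the glycine cleavage system releases another carbon from glycine. The folate-bound carbons are used to build purines and thymidylate and to turn homocysteine back into methionine, whose activated form, S-adenosylmethionine, methylates many acceptors. The liver is the main site of this exchange, and it also obtains methyl groups from choline through betaine and disposes of surplus methionine through transsulfuration to cysteine.

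The libraries are called by their labels throughout. Correlations of log2(FPKM + 1) were 0.868 to 0.918 within groups and 0.661 to 0.785 between them. Before any result, the direction of the labels was set against 8 listed loci of genes known to rise when oxygen is low. In the libraries labelled HG, 6 of them were lower and 1, pdk1, was higher (median log2 fold change -4.84). The prolyl hydroxylase gene egln3 had 275 ± 87.3 FPKM in CG (SD, n = 3) and 2.09 ± 0.446 FPKM in HG. That direction is the reverse of the one known for low oxygen, so every direction given here is that of the libraries as labelled.

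Transcripts that mark some other cell types also differed in level between the groups. By the test described below, 8.27% of all tested loci were higher in HG and 12.1% were lower. Of the listed exocrine pancreas markers, 5 of 7 tested loci were lower in HG, and 1 that did not pass was higher without overlap. The summed level of the list was 1950 to 4067 FPKM in CG and 224 to 1011 FPKM in HG. The endothelium list had 4 of 9 lower, with sums of 47.0 to 55.2 FPKM in CG and 19.7 to 25.1 FPKM in HG, and the bile duct list had 4 of 5 lower, with sums of 604 to 699 FPKM and 217 to 288 FPKM. Of the hepatocyte markers, 6 of 18 were higher and 2 lower, with sums of 40670 to 53853 FPKM in CG and 49689 to 60550 FPKM in HG. The macrophage and neutrophil list had 3 of 9 lower, but its sums overlapped, at 1845 to 2179 FPKM in CG and 1810 to 3159 FPKM in HG. The stellate and fibroblast list had 0 of 4 higher or lower, with sums of 3.42 to 15.0 FPKM in CG and 5.90 to 11.6 FPKM in HG. No marker of these lists was at 0 in every library. The part of these shifts in the results on one-carbon genes was not tested.

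More loci of the pathway rose than fell in HG, and enzymes that load, carry or spend folate-bound carbon were among those that rose. HG was compared with CG by limma on log2(FPKM + 1) over all 16423 loci that averaged 1 FPKM or more, and a locus passed at a Benjamini-Hochberg adjusted p under 0.05. Of the 58 loci, 13 were higher in HG (22.4%, where 8.27% of all tested loci were higher) and 4 were lower (6.90%, where 12.1% of all tested loci were lower). The other 41 did not pass. DE genes, which also changed by at least 1 on the log2 scale, numbered 12 higher and 2 lower, against 7.03% and 9.54% of all tested loci. The median log2 fold change of the 58 loci was 0.37 (range -2.60 to 3.24) and that of all tested loci was -0.14. Scaling by median of ratios moved the latter to 0.01, and the calls over all tested loci from 1359 higher and 1990 lower to 1817 and 1595, while 13 of the 58 loci were higher and 3 lower.

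**Figure D1:**
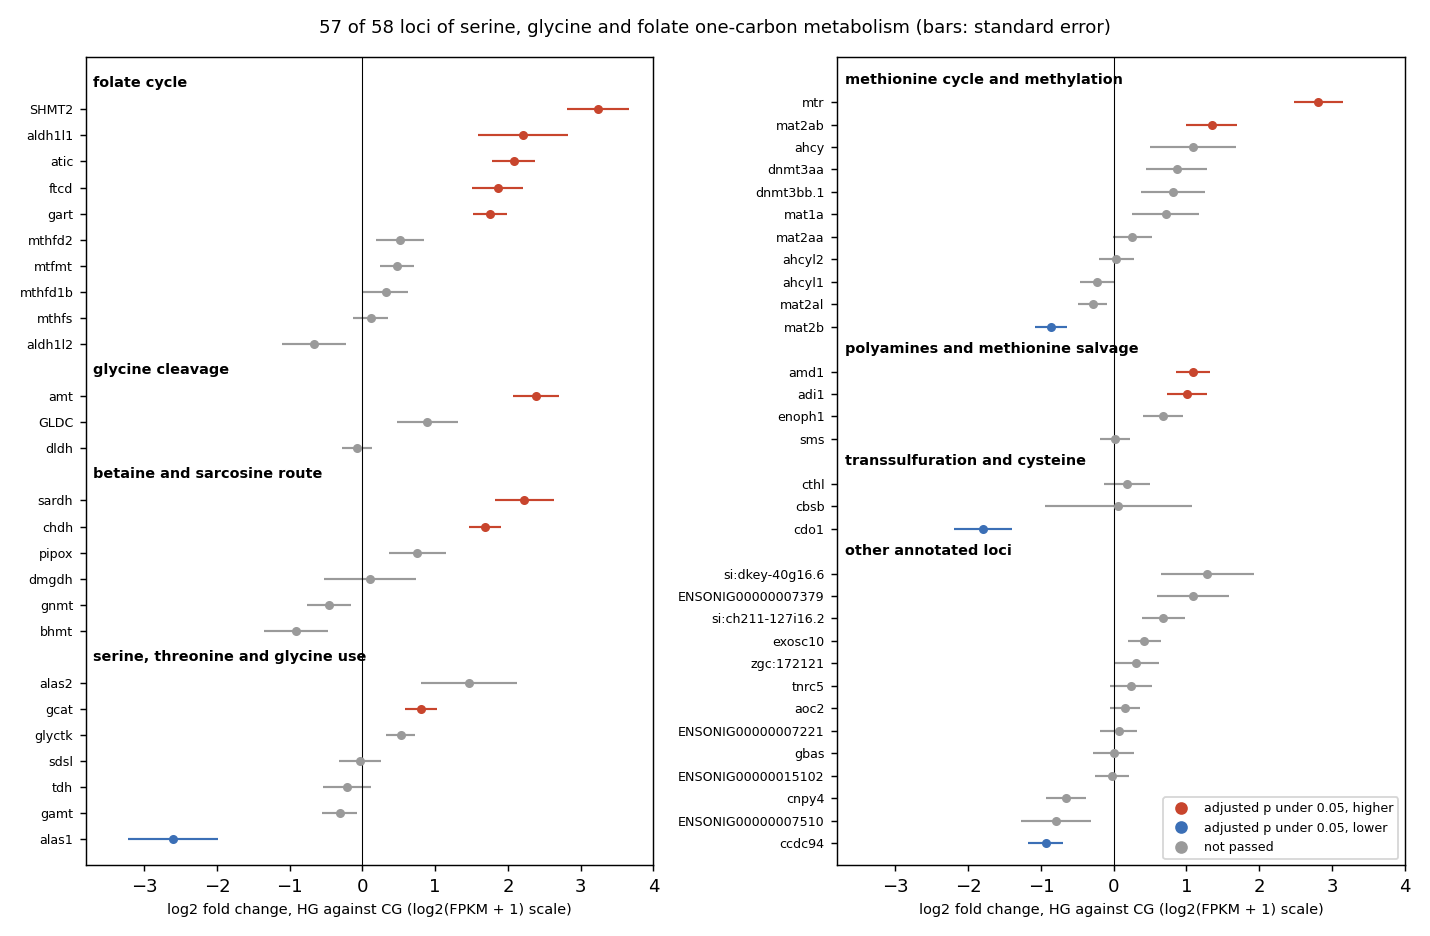
Log2 fold change of HG against CG for 57 of the 58 loci on the log2(FPKM + 1) scale, grouped by the role of the enzyme, with the standard error as bars. Red points passed as higher (13 loci), blue points passed as lower (4 loci) and grey points did not pass (40 loci).

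All 3 CG libraries lay below all 3 HG libraries in 19 loci, and above them in 5, whereas 34 loci overlapped. Among all tested loci, 16.5% were separated upwards and 27% downwards. At an unadjusted p under 0.05, which 36.6% of all tested loci met, 20 of the 58 were changed, 16 of them up and 4 down. The Ballgown-style linear model has 3 residual degrees of freedom. Its covariate is the sum in each library of log2(FPKM + 1) over nonzero loci below their upper quartile, not the read depth. This model called 0 of the 58 after adjustment and 2 of all tested loci, and 13 of the 58 had an unadjusted p under 0.05 (11 up and 2 down). The count of higher loci was 7 without HG-1, 8 without CG-3 and 8 without HG-2, and the count of lower loci was 2 without CG-1, 0 without CG-2, 0 without HG-1, 0 without HG-2 and 2 without HG-3. Calls over all tested loci fell as well, from 1359 higher and 1990 lower. With 1 library left out they were 784 to 970 higher and 804 to 1434 lower. The 7 loci SHMT2, mtr, amt, sardh, atic, gart and chdh passed in every alternative in which they were tested except the Ballgown-style model. Of these, mtr, gart and chdh were below the minimum of 10 FPKM and were not tested under it. The locus of chdh also reached the minimum of 1 FPKM through HG alone, so the filter favoured its rise.

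By pathway entry, the one carbon pool by folate had 7 of 13 loci higher and 0 lower (median log2 fold change 1.75). Glycine, serine and threonine metabolism had 5 of 26 higher and 1 lower (median 0.17), and cysteine and methionine metabolism had 4 of 27 higher and 3 lower (median 0.26). A locus can carry more than 1 of these entries. Beside these counts and those by role below stand the shares of all tested loci, 8.27% higher and 12.1% lower. Every locus lower at an unadjusted p under 0.05 was also one of the 4 that passed.

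Among the 11 enzymes of the folate cycle, 5 were higher and 0 lower by limma, with a median log2 fold change of 1.06. Their summed level was 67.3, 155 and 102 FPKM in CG and 464, 441 and 301 FPKM in HG. Here and below, the values of a group are those of its libraries 1, 2 and 3 in turn. Each HG sum was above each CG sum, and aldh1l1 was the largest part of the sum in every HG library.

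On the log2(FPKM + 1) scale, where changes of weak genes are compressed, the largest rise of all 58 loci was in SHMT2 (locus MSTRG.7329), a copy of the mitochondrial serine hydroxymethyltransferase that splits serine into glycine and a folate-bound carbon. It had 1.73, 6.30 and 3.33 FPKM in CG and 29.0, 61.4 and 38.1 FPKM in HG. The lowest HG library was well above the highest CG library, and CG-2 and HG-2 were the highest of their groups. Expression rose by a log2 fold change of 3.24 ± 0.43 (SE; limma adjusted p = 0.00451).

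The table holds 3 further serine hydroxymethyltransferase loci. The locus shmt2 MSTRG.14585, which had no KEGG entry for the pathways, had 1.58, 3.69 and 1.89 FPKM in CG and 10.1, 9.34 and 9.49 FPKM in HG. It was also up-regulated, with a log2 fold change of 1.70 (limma adjusted p = 0.00732) and no overlap of the groups. The locus shmt2 MSTRG.14568 fell just below the minimum, with 0.184, 0.685 and 0.364 FPKM in CG and 1.28, 0.786 and 1.004 FPKM in HG, and was not tested. Both are marked as 1 of many copies, as SHMT2 is, and such copies may share reads.

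Cytosolic shmt1 (MSTRG.5663), which carries out the same reaction outside the mitochondrion, showed no such separation. It had 40.9, 75.4 and 28.0 FPKM in CG and 45.9, 54.3 and 53.8 FPKM in HG. All HG libraries lay within the CG range, and the log2 fold change of 0.21 did not pass (limma adjusted p = 0.72). In CG the level of SHMT2 was 0.0424, 0.0836 and 0.119 of that of shmt1, and in HG it was 0.632, 1.13 and 0.708 of it. The log2 ratio of the 2 genes was 3.41 higher in HG, with p = 0.1 by a two-sided exact permutation test (adjusted p = 0.133 over 4 gene pairs chosen after their values were seen), and 0.1 is the smallest p that 3 against 3 libraries allow.

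The methylenetetrahydrofolate dehydrogenases, which interconvert the oxidation states of the carried carbon, were weakly expressed. The trifunctional cytosolic enzyme mthfd1b had 5.07, 9.46 and 4.26 FPKM in CG and 7.54, 6.27 and 9.50 FPKM in HG. The mitochondrial mthfd2 (MSTRG.14372) had 1.60, 0.764 and 0.442 FPKM in CG and 2.66, 1.17 and 1.43 FPKM in HG. In both genes the groups overlapped, and neither log2 fold change, 0.32 for mthfd1b and 0.52 for mthfd2, passed.

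The neighbouring mthfd2 locus MSTRG.14371 had 1.68, 0.0793 and 0.0898 FPKM in CG and 1.28, 0.297 and 1.13 FPKM in HG, and was below the minimum. The locus of mthfd1l had 0.318, 0.454 and 0.113 FPKM in CG and 0.138, 0.144 and 0.166 FPKM in HG. The locus of mthfd2l was listed at 0, 0 and 0.0175 FPKM in CG and at 0, 0 and 0.0338 FPKM in HG. Both were far below the minimum in every library. None of the mthfd2, mthfd1l and mthfd2l loci exceeded 2.66 FPKM in any library.

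The enzyme 10-formyltetrahydrofolate dehydrogenase, aldh1l1, releases the formyl carbon as carbon dioxide and is abundant in liver. It had 17.7, 98.8 and 42.5 FPKM in CG and 280, 228 and 124 FPKM in HG, the highest HG levels of any folate cycle gene here. The groups did not overlap, although CG-2 came close to HG-3. Its rise was 2.21 ± 0.62 on the log2 scale (limma adjusted p = 0.0486), and the call was lost without CG-1, without CG-3 or without any of the HG libraries (adjusted p up to 0.148), under upper quartile scaling and under quantile normalization. Its mitochondrial relative aldh1l2 was near the minimum, at 1.51 ± 1.09 FPKM in CG and 0.547 ± 0.579 FPKM in HG, and did not pass.

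The bifunctional ftcd moves a carbon from histidine breakdown onto folate. Its level was 25.6, 15.4 and 36.0 FPKM in CG and 101, 106 and 69.8 FPKM in HG, with every HG library above every CG library. It was up-regulated by a log2 fold change of 1.86 ± 0.35 (limma adjusted p = 0.0139), and among the fits that leave out a library the call was lost without HG-1 (adjusted p = 0.0568).

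Both purine synthesis enzymes that take up a formyl carbon were up-regulated. The locus of atic, which performs the later formyl transfer, had 4.04, 5.93 and 3.34 FPKM in CG and 19.3, 17.1 and 30.02 FPKM in HG. The locus of gart, which performs the earlier one, had 0.962, 1.70 and 1.08 FPKM in CG and 8.23, 5.23 and 6.30 FPKM in HG. The groups were clearly separated in both genes, and the log2 fold changes were 2.08 ± 0.29 for atic (limma adjusted p = 0.00551) and 1.75 ± 0.23 for gart (limma adjusted p = 0.00442).

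The folate salvage enzyme mthfs (MSTRG.16717) and mtfmt, which formylates the mitochondrial initiator tRNA, had log2 fold changes of 0.11 and 0.47 and did not pass. A further mthfs locus without a KEGG entry, MSTRG.16719, had 3.85, 3.53 and 6.04 FPKM in CG and 10.8, 5.28 and 15.0 FPKM in HG. These groups overlapped, and its log2 fold change of 0.98 did not pass (limma adjusted p = 0.112).

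**Figure D2:**
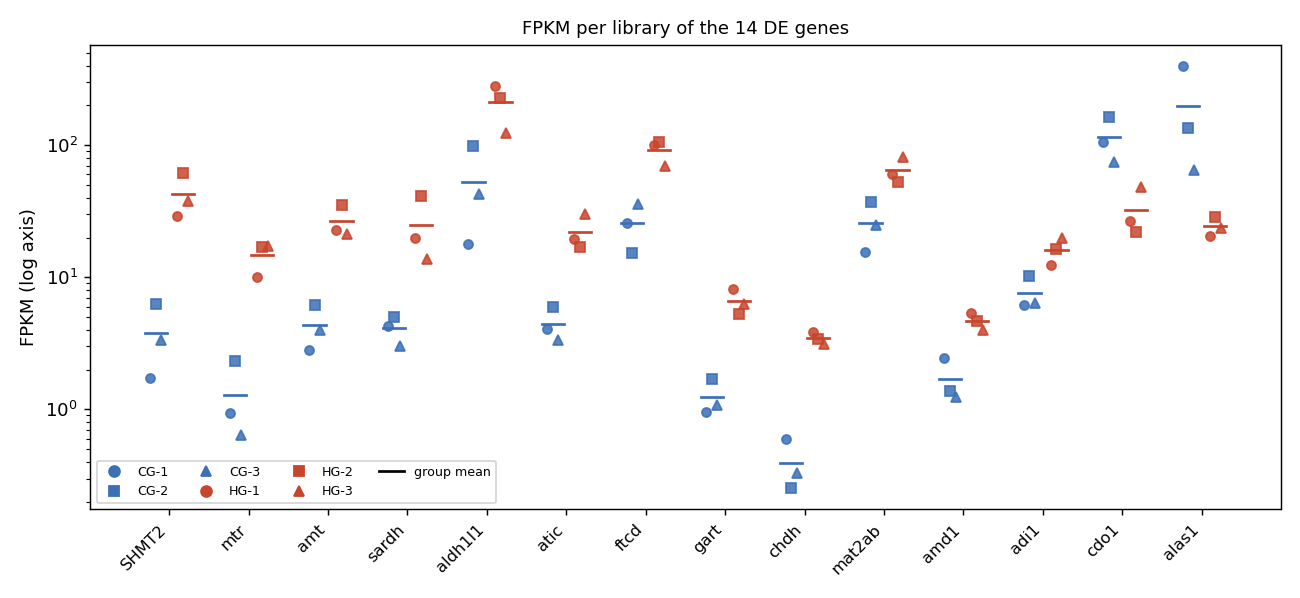
FPKM in each library, on a log axis, of the 14 DE genes among the 58 loci, with a horizontal line at the mean of the 3 libraries of a group. The 12 genes at the left were higher in HG and the 2 at the right, cdo1 and alas1, were lower, and in none of the 14 do the CG and HG libraries overlap.

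In the glycine cleavage system, 1 of 3 loci was higher. This was amt, the aminomethyltransferase that hands the carbon released from glycine to tetrahydrofolate. It had 2.81, 6.18 and 3.98 FPKM in CG and 23.0, 35.1 and 21.3 FPKM in HG, with no overlap and a log2 fold change of 2.38 ± 0.31 (limma adjusted p = 0.00448).

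The decarboxylating subunit GLDC (MSTRG.18455) had 3.00 ± 1.80 FPKM in CG and 6.13 ± 2.22 FPKM in HG, and its log2 fold change of 0.89 did not pass (limma adjusted p = 0.175). A neighbouring GLDC locus without a KEGG entry, MSTRG.18456, had a log2 fold change of 0.05 with wide spread in both groups, from 4.70 to 26.9 FPKM in CG and from 6.46 to 29.8 FPKM in HG. The carrier subunit gcsha, also without an entry, had 3.31, 9.21 and 5.98 FPKM in CG and 10.7, 12.3 and 13.7 FPKM in HG. These groups did not overlap, but the log2 fold change of 0.96 did not pass (limma adjusted p = 0.0842) except without CG-2 (adjusted p = 0.0443). The lipoamide dehydrogenase dldh, which other enzyme complexes share, had 50.3 ± 3.76 FPKM in CG and 47.9 ± 5.62 FPKM in HG.

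On the route from choline to glycine, 2 of 6 loci were higher and 0 lower. Sarcosine dehydrogenase, sardh, which turns sarcosine into glycine in mitochondria and passes its carbon to folate, had 4.26, 5.03 and 3.04 FPKM in CG and 19.8, 41.4 and 13.8 FPKM in HG. The CG libraries were close together and the HG libraries spread out above them. This was a log2 fold change of 2.22 ± 0.40 (limma adjusted p = 0.0126).

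Choline dehydrogenase, chdh, which starts betaine synthesis, had 0.597, 0.253 and 0.327 FPKM in CG and 3.85, 3.43 and 3.11 FPKM in HG. It was weak in every CG library and detectable at several FPKM in every HG library, with a log2 fold change of 1.69 ± 0.21 (limma adjusted p = 0.004). The next enzyme that can make betaine, aldh7a1 (antiquitin, which also acts in lysine breakdown), had no KEGG entry for the pathways. It had 5.55, 7.22 and 8.96 FPKM in CG and 41.7, 49.2 and 52.1 FPKM in HG, with a log2 fold change of 2.58 ± 0.24 (limma adjusted p = 0.00163).

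Between these steps the abundant enzymes did not pass. Betaine-homocysteine methyltransferase, which uses betaine to remethylate homocysteine, was represented by bhmt and by ENSONIG00000007379, an unnamed locus with the same enzyme annotation. The locus of bhmt had 134, 282 and 133 FPKM in CG and 152, 77.7 and 63.0 FPKM in HG, and the unnamed copy had 86.6, 275 and 99.2 FPKM in CG and 430, 226 and 238 FPKM in HG. CG-2 was the highest CG library in both copies, and the groups overlapped in both. Their log2 fold changes were -0.91 and 1.09 (limma adjusted p = 0.182 and 0.16), and the unnamed copy passed when CG-2 was left out (1.61, adjusted p = 0.0371).

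The copies were also compared by their ratio within a library. The unnamed copy was at 0.647, 0.978 and 0.747 times the level of bhmt in CG and at 2.83, 2.91 and 3.78 times in HG, so that every CG ratio was below every HG ratio. The log2 ratio was 2.01 higher in HG, with the smallest p that a two-sided exact permutation test allows here, 0.1 (adjusted p = 0.133).

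Glycine N-methyltransferase, gnmt, which consumes S-adenosylmethionine to make sarcosine, had 10.8, 7.84 and 5.01 FPKM in CG and 5.56, 6.52 and 3.94 FPKM in HG. The groups overlapped, and the log2 fold change of -0.46 did not pass (limma adjusted p = 0.322). The dimethylglycine dehydrogenase dmgdh had 19.95 ± 15.4 FPKM in CG and 18.6 ± 8.42 FPKM in HG. The peroxisomal sarcosine oxidase pipox (MSTRG.22660) had 72.5 ± 40.5 FPKM in CG and 112 ± 8.19 FPKM in HG, and passed as higher only without CG-2 (log2 fold change 1.17, limma adjusted p = 0.0471).

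The 7 loci of serine, threonine and glycine use had 1 higher and 1 lower, and a median log2 fold change of -0.03. Their summed level was 579, 257 and 216 FPKM in CG and 209, 190 and 171 FPKM in HG, and alas1 was the largest part of the sum in CG-1 and CG-2. Every HG sum was below every CG sum, by a small margin between CG-3 and HG-1.

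The lower locus was alas1 (MSTRG.17514), the 5-aminolevulinate synthase that uses glycine in the rate-limiting step of heme synthesis in liver. It had 399, 134 and 64.7 FPKM in CG and 20.7, 28.5 and 23.7 FPKM in HG. The CG libraries differed widely among themselves, the HG libraries were close together, and the groups did not overlap. Its log2 fold change of -2.60 ± 0.61 was the largest fall among the 58 loci on the log2(FPKM + 1) scale (limma adjusted p = 0.0288), and the call was lost without CG-2 or without any of the HG libraries (adjusted p up to 0.0949). A further alas1 locus without a KEGG entry, MSTRG.17511, had 0.834 ± 0.334 FPKM in CG and 1.53 ± 0.663 FPKM in HG. It lay near the minimum, and its log2 fold change of 0.45 did not pass (limma adjusted p = 0.314).

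The isozyme of red blood cells, alas2, had 16.3, 1.85 and 3.68 FPKM in CG and 24.8, 14.2 and 11.5 FPKM in HG. CG-1 lay within the HG range, and the log2 fold change of 1.47 did not pass (limma adjusted p = 0.159), whereas it did without CG-1 (2.22, adjusted p = 0.027). The red blood cell list, of which alas2 is part, had 1 of 5 tested loci higher and 0 lower, with sums of 14.4 to 39.1 FPKM in CG and 34.6 to 62.3 FPKM in HG. Its part in the alas2 values was not tested. The level of alas1 was 24.4, 72.3 and 17.5 times that of alas2 in CG and 0.836, 2.02 and 2.05 times in HG, a log2 ratio lower by 4.38 in HG (two-sided exact permutation p = 0.1, adjusted p = 0.133).

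**Figure D3:**
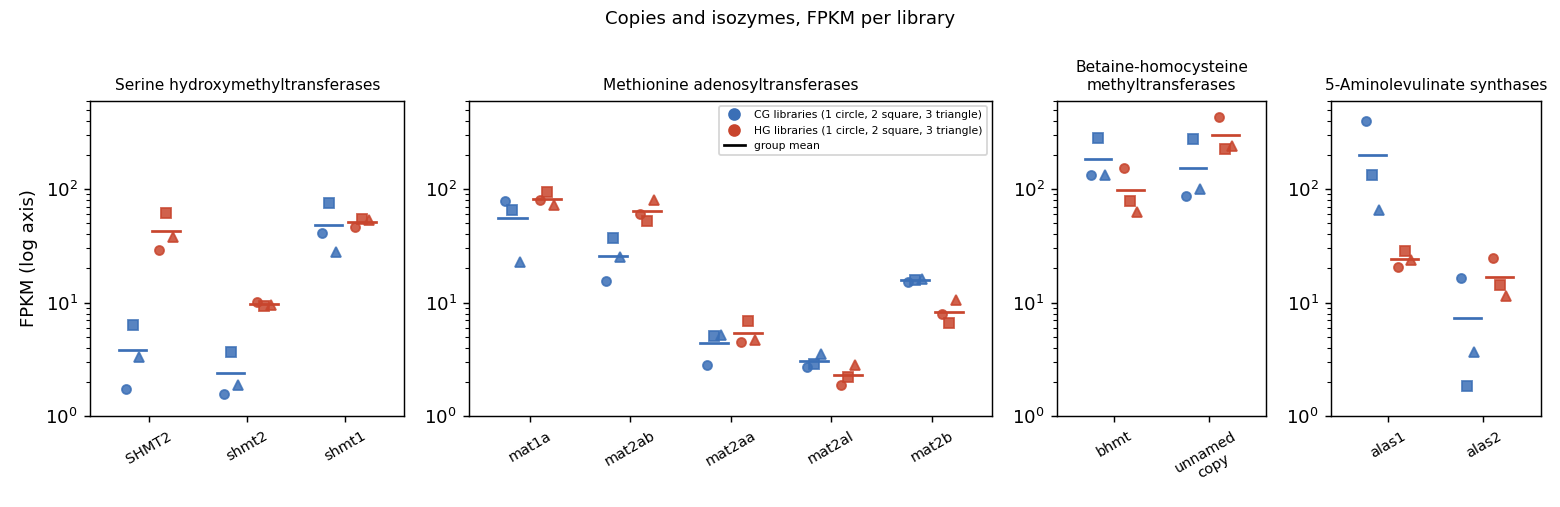
FPKM in each library, on a common log axis, of the copies or isozymes of 4 enzymes, with a line at the group mean. SHMT2 and the shmt2 copy MSTRG.14585 were separated between groups while shmt1 was not. The pair of betaine-homocysteine methyltransferase loci overlapped between groups, and alas1 MSTRG.17514 was lower in every HG library.

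The higher locus was gcat, which cleaves the product of threonine dehydrogenase into glycine. It had 20.05 ± 0.753 FPKM in CG and 36.1 ± 6.98 FPKM in HG, a log2 fold change of 0.80 ± 0.22 with no overlap (limma adjusted p = 0.044). This call was lost when any 1 library was left out (adjusted p up to 0.136). The dehydrogenase itself, tdh, had 32.3 ± 5.98 FPKM in CG and 29.0 ± 12.4 FPKM in HG and did not pass.

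Glycerate kinase, glyctk, had 13.8 ± 1.69 FPKM in CG and 20.3 ± 1.62 FPKM in HG without overlap, but its log2 fold change of 0.53 did not pass (limma adjusted p = 0.104). The serine dehydratase-like gene sdsl and gamt, which makes creatine with a methyl group from S-adenosylmethionine, had log2 fold changes of -0.03 and -0.31 and did not pass.

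Enzymes that make serine from a glycolytic intermediate were almost silent. The locus of phgdh, the entry enzyme, did not exceed 0.0417 FPKM in any library. The locus of psat1 had 0.0141, 0.154 and 0.0792 FPKM in CG and 0.0813, 0.563 and 1.54 FPKM in HG, and both were below the minimum. The phosphatase psph, which had no KEGG entry for the pathways, was the exception, in HG only. It had 0.547, 0.748 and 0.461 FPKM in CG and 3.58, 2.28 and 2.42 FPKM in HG (log2 fold change 1.23, limma adjusted p = 0.0143, and 0.0589 without HG-1). It was below 1 FPKM in every CG library and reached the minimum through HG alone, so the filter favoured a rise. The thymidylate enzymes tyms and dhfr were also below the minimum, with means over the 6 libraries of 0.461 and 0.0429 FPKM.

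Of the 11 loci of the methionine cycle and methylation, 2 were higher and 1 was lower, and the median log2 fold change was 0.71. Their summed level was 137, 205 and 104 FPKM in CG and 232, 245 and 265 FPKM in HG, with no overlap. Methionine synthase, mtr, which joins the folate and methionine cycles by passing the methyl group of folate to homocysteine, showed the second largest rise of the 58 loci on the log2(FPKM + 1) scale. It had 0.937, 2.31 and 0.642 FPKM in CG and 10.1, 16.9 and 17.2 FPKM in HG. No CG library came near the HG range, and the log2 fold change was 2.81 ± 0.34 (limma adjusted p = 0.00329).

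The locus named for its reductase mtrr, which restores the cobalamin cofactor, had no KEGG entry for the pathways. Its annotation was that of another enzyme (EC:1.14.13.39), so its identity is uncertain. It had 6.35, 3.47 and 3.85 FPKM in CG and 1.78, 2.55 and 2.01 FPKM in HG. These groups were separated in the other direction, but the log2 fold change of -0.81 did not pass (limma adjusted p = 0.0605).

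S-adenosylmethionine is made by methionine adenosyltransferases. The locus mat2ab, of the form found in most tissues, had 15.4, 37.1 and 25.1 FPKM in CG and 60.4, 52.2 and 80.8 FPKM in HG, with no overlap. Its log2 fold change of 1.34 ± 0.35 passed (limma adjusted p = 0.0397) but not without CG-1, without CG-3 or without any of the HG libraries (adjusted p up to 0.11). The liver form mat1a had 78.4, 64.9 and 22.9 FPKM in CG and 79.7, 93.2 and 71.9 FPKM in HG, and its log2 fold change of 0.71 did not pass (limma adjusted p = 0.302). The other catalytic copies mat2aa and mat2al were lower in level, at 4.38 ± 1.35 and 3.04 ± 0.433 FPKM in CG, and did not pass.

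The regulatory subunit mat2b had 15.2, 15.9 and 16.1 FPKM in CG and 7.99, 6.58 and 10.5 FPKM in HG. The CG libraries were nearly equal and all above HG, and the log2 fold change was -0.86 ± 0.22 (limma adjusted p = 0.0369). This call was lost without any 1 of the libraries except HG-3 (adjusted p up to 0.113) and under scaling by median of ratios, upper quartile or quantiles. The ratio of mat2ab to mat1a ranged from 0.197 to 1.09 in CG and from 0.560 to 1.12 in HG, so the groups overlapped (two-sided exact permutation p = 0.5).

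Adenosylhomocysteinase, ahcy, which clears the product of methylation, had 11.9, 70.2 and 24.0 FPKM in CG and 60.7, 49.1 and 70.2 FPKM in HG. CG-2 was level with the highest HG library, and the other CG libraries were below the HG range. Its log2 fold change of 1.09 did not pass (limma adjusted p = 0.228), and without CG-2 it was 1.75 (adjusted p = 0.0332).

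The de novo DNA methyltransferases were weak. The dnmt3aa locus MSTRG.8726 and dnmt3bb.1 had log2 fold changes of 0.87 and 0.81 and did not pass, with HG-2 the highest library in both. Of loci without an entry, dnmt3aa MSTRG.8725 had 1.199, 1.24 and 1.19 FPKM in CG and 3.78, 5.97 and 6.92 FPKM in HG (log2 fold change 1.54, limma adjusted p = 0.00702). The dnmt3ab locus MSTRG.5416 had 1.51 ± 0.334 FPKM in CG and 3.63 ± 0.240 FPKM in HG and also passed as higher, with a log2 fold change of 0.89, a call lost without any 1 library except CG-2 (adjusted p up to 0.0667). The locus named for the maintenance enzyme dnmt1 was below the minimum at 0.523 FPKM over the 6 libraries. An unnamed member annotated as a DNA methyltransferase (K00558, EC:2.1.1.37), ENSONIG00000007221, had 1.13 ± 0.239 FPKM in CG and 1.26 ± 0.468 FPKM in HG. Its log2 fold change of 0.07 did not pass (limma adjusted p = 0.873).

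S-adenosylmethionine also feeds polyamine synthesis, whose by-product is recycled to methionine. Of 4 loci of these steps 2 were higher and 0 lower. The decarboxylase amd1 (MSTRG.15838) had 2.46, 1.37 and 1.24 FPKM in CG and 5.37, 4.65 and 3.96 FPKM in HG, and adi1 of methionine salvage had 6.21, 10.2 and 6.34 FPKM in CG and 12.3, 16.4 and 19.9 FPKM in HG. Neither overlapped, and the log2 fold changes were 1.09 ± 0.23 for amd1 (limma adjusted p = 0.0212) and 1.01 ± 0.28 for adi1 (limma adjusted p = 0.0454).

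With 1 library left out, the log2 fold change was 0.98 to 1.29 for amd1 and 0.85 to 1.22 for adi1. Both calls were lost in several of these fits. That of amd1 was lost without CG-2, CG-3, HG-1 or HG-2 (adjusted p up to 0.0806), and that of adi1 without CG-1, CG-3 or any HG library (adjusted p up to 0.121). A neighbouring amd1 locus without an entry, MSTRG.15837, was more abundant, at 26.9 ± 15.9 FPKM in CG and 30.5 ± 9.60 FPKM in HG, and its log2 fold change of 0.29 did not pass. Neighbouring loci of the same name may be parts of a single gene. The salvage gene enoph1 had a log2 fold change of 0.68 without overlap and did not pass, while apip, another salvage enzyme without an entry, was lower, with a log2 fold change of -1.07 (limma adjusted p = 0.0305), a call lost without CG-1, CG-2, HG-1 or HG-2 (adjusted p up to 0.106).

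Of the 3 loci of transsulfuration and cysteine use, 0 were higher and 1 was lower. Cysteine dioxygenase, cdo1, which oxidizes cysteine towards taurine and sulfate, had 106, 164 and 74.7 FPKM in CG and 26.9, 22.2 and 48.0 FPKM in HG. The HG libraries were all below the CG libraries. Its log2 fold change was -1.80 ± 0.40 (limma adjusted p = 0.0228), and the call was lost without CG-1, CG-2, HG-1 or HG-2 (adjusted p up to 0.0822).

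Cystathionine beta-synthase, cbsb, which draws homocysteine out of the methionine cycle, had 250, 19.8 and 302 FPKM in CG and 157, 162 and 69.1 FPKM in HG. CG-2 was far below all other libraries. Its log2 fold change was 0.06 with a standard error of 1.01, and without CG-2 it was -1.18 (limma adjusted p = 0.121). The next enzyme, cthl, had 44.8 ± 9.65 FPKM in CG and 52.4 ± 16.9 FPKM in HG and did not pass.

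In CG-2, cbsb was low where many other members were high. CG-2 was the highest CG library in 27 of the 58 loci (46.6%, where it was highest in 27.4% of all tested loci) and in 9 of the 13 that were higher in HG (69.2%, where it was highest in 39.1% of all tested loci higher in HG). The median SD over the 3 libraries on the log2 scale was 0.38 in CG and 0.31 in HG for the 58 loci, and 0.32 and 0.29 for all tested loci.

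The remaining 13 loci carried a KEGG entry but no role on the list, and 0 of them were higher and 1 was lower. The lower one was ccdc94, with 14.2 ± 3.69 FPKM in CG and 6.83 ± 0.804 FPKM in HG (log2 fold change -0.94, limma adjusted p = 0.037), a call lost without CG-1, CG-2 or any HG library (adjusted p up to 0.121). The entry of ccdc94 came with no enzyme annotation in the table, which was also true of tnrc5, cnpy4 and ENSONIG00000015102. Another locus, exosc10, was annotated with spermidine synthase under the name of an RNA processing gene and may join neighbouring genes. Leaving out these 5 kept 13 higher loci, 3 lower loci and a median log2 fold change of 0.52.

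Enzymes of the same roles that had no entry for the 3 pathways comprised 26 loci, 24 of them tested. Of these, 5 were higher (aldh7a1, shmt2 MSTRG.14585, dnmt3aa MSTRG.8725, psph and dnmt3ab MSTRG.5416), 3 were lower and 16 did not pass, with a median log2 fold change of 0.23. These are 20.8% higher and 12.5% lower, where 8.27% and 12.1% of all tested loci were. The 3 lower loci were apip and both loci of adob, a copy of the thiol dioxygenase that oxidizes cysteamine. The adob locus MSTRG.18967 had 22.5 ± 5.01 FPKM in CG and 3.17 ± 0.287 FPKM in HG (log2 fold change -2.47, limma adjusted p = 0.00164). The subunits of glutamate-cysteine ligase for glutathione synthesis, gclc and gclm, had log2 fold changes of -0.07 and -0.05 and did not pass.

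**Figure D4:**
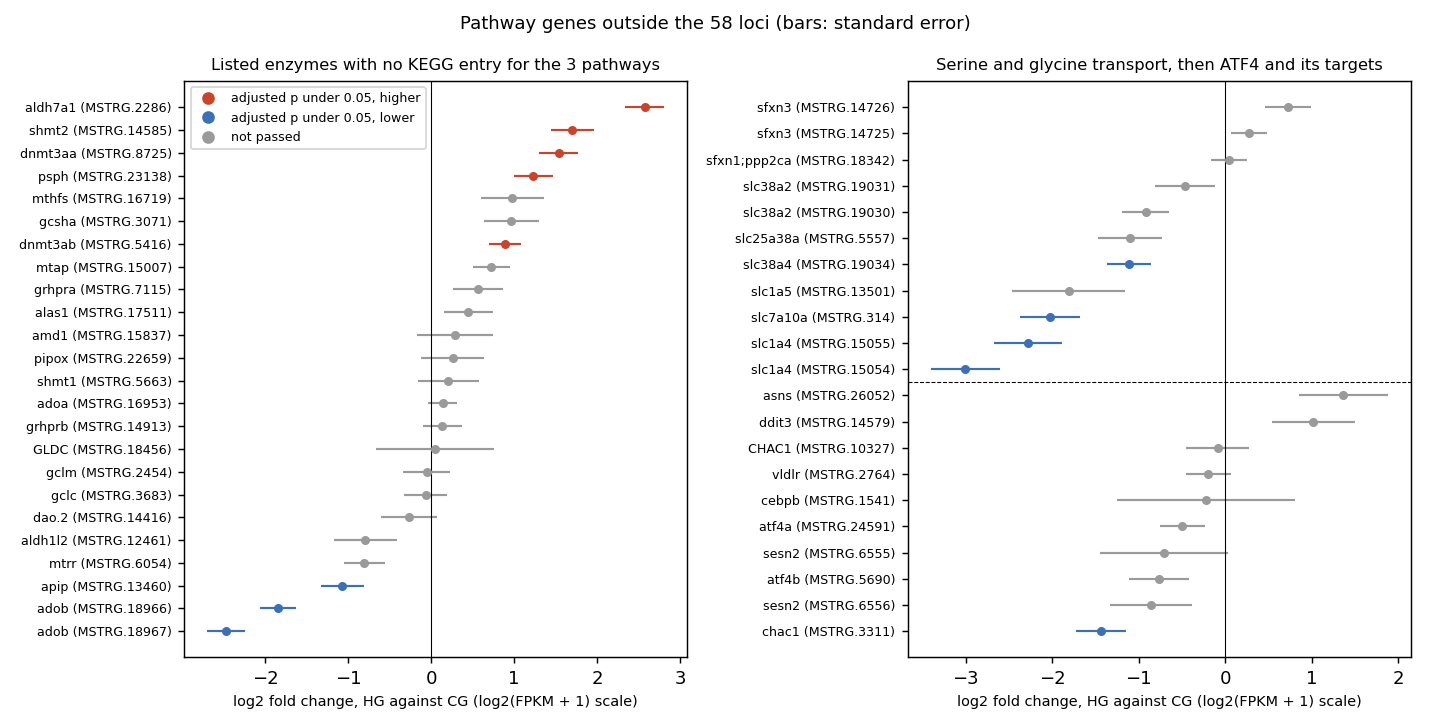
Log2 fold change of HG against CG with its standard error for tested loci outside the 58: at the left the 24 listed enzymes without a KEGG entry for the 3 pathways, at the right 11 loci of serine and glycine transport and, below the dashed line, 10 loci of ATF4 and its targets. Red points passed as higher, blue points as lower and grey points did not pass, and all 4 transport loci that passed were lower in HG.

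Transporters that bring serine and glycine into cells or mitochondria were lower where they passed. Of 11 tested loci 4 were lower (12.1% of all tested loci were) and 0 higher, with a median of -1.10 on the log2 scale. An unadjusted p under 0.05 was met by 8 of the 11 (36.6% of all tested loci met it). Among these 8 the sfxn3 locus MSTRG.14726 rose and the others fell. It had 0.902 ± 0.461 FPKM in CG and 2.09 ± 0.271 FPKM in HG (log2 fold change 0.73), and did not pass. Of the 4 lower loci 2 are neighbouring slc1a4 loci, which may be parts of a single gene. The neutral amino acid transporter slc1a4 (MSTRG.15054) had 10.02, 17.5 and 24.1 FPKM in CG and 1.496, 0.361 and 1.91 FPKM in HG (log2 fold change -3.0, limma adjusted p = 0.00467). All HG libraries were far below CG, and its neighbouring locus MSTRG.15055 was also lower, with a log2 fold change of -2.28. That neighbouring locus was below 1 FPKM in every HG library and reached the minimum through CG alone.

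The transporter slc7a10a fell from 4.28 ± 2.38 to 0.232 ± 0.208 FPKM (log2 fold change -2.02, limma adjusted p = 0.0106). It was below 1 FPKM in every HG library and also reached the minimum through CG alone. The liver amino acid transporter slc38a4 had 178, 226 and 254 FPKM in CG and 111, 115 and 77.2 FPKM in HG, with no overlap and a log2 fold change of -1.12 (limma adjusted p = 0.0258), a call lost without CG-2, CG-3, HG-1 or HG-3 (adjusted p up to 0.0701) and under median of ratios and upper quartile scaling. The mitochondrial serine carrier locus sfxn1, which the table joins with ppp2ca, had a log2 fold change of 0.04, and the mitochondrial glycine carrier slc25a38a, needed for heme synthesis, had -1.10 without passing (limma adjusted p = 0.0777).

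ATF4 is a transcription factor known in mammals to activate serine synthesis and mitochondrial folate genes under amino acid and mitochondrial stress. It was followed with a list of other known targets. Serine synthesis and mitochondrial folate genes were not on this list. Of them, SHMT2, shmt2 MSTRG.14585 and psph passed as higher, mthfd2 MSTRG.14372 and aldh1l2 did not pass, and phgdh and psat1 were below the minimum. Of the 10 tested loci on the list, 0 were higher and 1 was lower (median log2 fold change -0.36), where 8.27% and 12.1% of all tested loci were. An unadjusted p under 0.05 was met by 2 of them, where 36.6% of all tested loci met it. The loci atf4a and atf4b had log2 fold changes of -0.49 and -0.76 and did not pass. The locus that passed as lower was named chac1 (MSTRG.3311), after a gene whose product degrades glutathione. It had 103, 82.1 and 77.8 FPKM in CG and 38.8, 21.7 and 36.9 FPKM in HG (log2 fold change -1.44, limma adjusted p = 0.0166). Its annotation was that of another enzyme (EC:1.1.1.34), so its identity is uncertain. A further CHAC1 locus, MSTRG.10327, had a log2 fold change of -0.09 and did not pass (limma adjusted p = 0.887). Only 2 of the 10 had a positive log2 fold change, asns and ddit3. The asparagine synthetase asns had 1.37 ± 0.0700 FPKM in CG and 6.39 ± 5.47 FPKM in HG without overlap. Its log2 fold change of 1.37 did not pass (limma adjusted p = 0.106, and 0.0401 to 0.212 with 1 library left out). The locus of ddit3 had 65.9 ± 40.5 FPKM in CG and 119 ± 21.6 FPKM in HG. Its log2 fold change of 1.02 did not pass (limma adjusted p = 0.17).

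Folate uptake and polyglutamation had 0 of 6 tested loci higher and 0 lower by limma, where 8.27% and 12.1% of all tested loci were. An unadjusted p under 0.05 was met by 0 of the 6 (36.6% of all tested loci met it), and the median log2 fold change was 0.23. In 2 of the 6 every HG library lay above every CG library, as in 16.5% of all tested loci. The polyglutamate synthase fpgs, which traps folate in cells, had 32.4 ± 3.02 FPKM in CG and 44.2 ± 5.48 FPKM in HG without overlap, and did not pass. Vitamins B6 and B12 are cofactors of serine hydroxymethyltransferase and methionine synthase. Of 10 tested loci that handle them, 4 had an unadjusted p under 0.05 (36.6% of all tested loci had). By adjusted p, 1 of the 10 was higher and 1 was lower, where 8.27% and 12.1% of all tested loci were. The higher one was pnpo, the last enzyme of pyridoxal phosphate synthesis (log2 fold change 1.24, limma adjusted p = 0.0305), and the lower one was mmadhc, which routes B12 to its enzymes (log2 fold change -1.63, limma adjusted p = 0.00569). The pnpo call was lost without any 1 library except HG-1 (adjusted p up to 0.0798). The locus of pnpo was below 1 FPKM in every CG library and reached the minimum through HG alone, so the filter favoured a rise. Of 3 tested methyltransferases that pass methyl groups to acceptors, prmt1, icmt and pemt, 0 passed, and 1 had an unadjusted p under 0.05.

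In the RefSeq gene order of the tilapia assembly O_niloticus_UMD_NMBU, which need not be the build of the deposited table, several members lie near each other. The closest are dmgdh and bhmt, at 1 protein-coding gene apart. By locus number dmgdh (MSTRG.23084) is near the unnamed copy (MSTRG.23082) and not near the locus named bhmt (MSTRG.13749). Which copy RefSeq names bhmt was not tested. The genes gnmt and sdsl are 3 protein-coding genes apart, as are mat2al and enoph1, and mat2ab and mthfd2 are 6 apart. The genes chdh and amt, both higher in HG, are 10 apart.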

How the data were processed

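Liver RNA of GIFT was sequenced in 6 libraries (3 CG, 3 HG). The authors mapped reads with HISAT and assembled and quantified transcripts with StringTie, and the deposited values are FPKM per locus. Tool versions and the genome build are not given in the sources used here. Read counts per locus were not used, so no counting interval is given. The paper lists the reads of each library, and this depth was not used here either. FPKM was taken as deposited, transformed to log2(FPKM + 1), and tested in loci averaging 1 FPKM or more by limma 3.58.1 with trend in R 4.3.3 (two-sided, Benjamini-Hochberg), a fit that was tested on simulated data. Fold changes on this scale understate those of weak genes. Exact permutation tests used scipy 1.17.1 in Python 3.11.15. The members and lists were chosen with earlier results of these data known. By the rule for named genes, every DE gene is named, values in every library are given for them and for all copies of shmt, mthfd and gnmt, and others are named within their role. Library values of further genes, and the genes of the other lists, were chosen after their values were seen. Alternatives were pseudocounts of 0.1 and 0.5, no minimum or 10 FPKM, 3 scalings, limma without trend or robust, a Ballgown-style model, a replicate block and leaving out each library. Values of 1 member are not reported here. The table holds no coordinates or sequences that were used here.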

Additional observations from a re-analysis of the deposited data

How the results depend on the processing

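The count of 13 higher loci was 9 to 13 under other pseudocounts, minimums, scalings and limma settings, 0 under the Ballgown-style model and 7 to 15 with 1 library left out. The count of 4 lower loci was 1 with no minimum, 0 under the Ballgown-style model and 0 to 3 with 1 library left out. Over all tested loci, 784 to 970 were higher and 804 to 1434 lower with 1 library left out. The median log2 fold change of 0.37 was 0.74 over the 26 loci averaging 10 FPKM or more, 0.55 under scaling by median of ratios, 0.55 by upper quartile and 0.54 by quantiles, and 0.34 to 0.51 with 1 library left out. Scaling by median of ratios moved the median of all tested loci from -0.14 to 0.01 and changed the split of all calls from 1359 higher and 1990 lower to 1817 and 1595. Of the 17 loci that passed, 10 lost the call with at least 1 library left out, and none of the 4 lower ones kept it throughout. The causes were not tested.

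With the replicate number as a block, 9 loci were higher and 1 lower. Calls over all tested loci were then 867 higher and 1093 lower, against 1359 and 1990 without the block. Deviations from the group means correlated by 0.04, -0.10 and -0.08 between libraries of the same number. Between libraries of different numbers the correlations were -0.05 to 0.11. These values showed no pairing over all tested loci, but with 3 libraries in a group they cannot exclude it.

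The sign changed in 14 loci, none of them past the threshold in either fit. Under median of ratios scaling the log2 fold change was 0.00066 in tdh, 0.0897 in ENSONIG00000015102, 0.14 in dldh and 0.16 in sdsl, under upper quartile scaling 0.0882, 0.14 and 0.16 in the last 3, and under quantile normalization 0.0742 in ENSONIG00000015102 and 0.15 in sdsl. Under the Ballgown-style model it was -0.17 in mthfs, 0.0505 in ENSONIG00000015102, -0.15 in dmgdh, -0.017 in gbas and 0.33 in sdsl. With 1 library left out it ranged from -0.0814 to 0.17 in ahcyl2, -0.10 to 0.15 in ENSONIG00000007221, -0.0346 to 0.27 in mthfs, -0.0155 to 0.47 in cthl, -0.0780 to 0.0575 in ENSONIG00000015102, -1.18 to 0.75 in cbsb, -0.51 to 0.68 in dmgdh, -0.15 to 0.23 in gbas, -0.26 to 0.14 in sdsl, -0.0765 to 0.12 in sms, -0.61 to 0.54 in GLDC MSTRG.18456 and -0.12 to 0.58 in shmt1.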
